A study of Oryza sativa with 6 samples.

Results

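The genes described here are 7 rice transcription factors of the stress and abscisic acid response, 4 of the NAC family (NAC6, SNAC1, NAC5 and NAC10) and 3 of the bZIP family (bZIP23, bZIP46 and TRAB1). They were chosen by their identifiers in the Rice Annotation Project, and each was found once among the 37942 gene models of the deposited tables. The RNA came from 3 kinds of root of Oryza sativa (nodal roots and the lateral roots called S-type and L-type), all of the genotype labelled Mulai and all grown in days and nights of 12 h at 30/25°C. Each root type was taken from control plants and from plants kept in 50 mM NaCl for 7 days, which makes 6 groups. Each group held 1 library, so no group had a replicate, and the labels give no number of plants behind a library, no link between root types by plant and no hour of sampling. Nodal roots are the shoot-borne main roots of a grass, S-type laterals stay short without branches, and L-type laterals grow long and form branches of their own.

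NAC and bZIP factors bind promoters of genes that protect cells from water loss and salt. Abscisic acid, the hormone made when water is short, binds receptors that then hold back the clade A PP2C phosphatases, which frees SnRK2 kinases to phosphorylate bZIP factors. Those factors bind the abscisic acid response element in promoters of dehydrin and LEA genes, while the stress NAC factors bind another motif, and many of them are themselves transcribed more under drought, salt or abscisic acid. In rice, several stress NAC genes have also been driven by a root promoter in transgenic plants, which then made thicker roots and yielded better in drought.

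The libraries held 5620282 to 8711710 fragments in genes. Values compared between libraries are the authors' scaled fragments, that is, fragment counts multiplied by 1 factor per library, and values compared between genes are the authors' FPKM, which divide by length. Root markers were present in every library: the silicon channel gene Lsi1 held 3659 to 24655 fragments and RCc3 held 294 to 15636. Intervals given for single libraries cover counting error only, and fragments are not independent molecules.

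Per length, SNAC1 had the highest level of the 7 genes in each of the 6 libraries and NAC10 or bZIP46 the lowest. SNAC1 (Os03g0815100, IRGSP-1.0 chromosome 3, 34166100 to 34167521), a factor whose overexpression improved drought and salt tolerance in rice, had 125, 325 and 477 FPKM in nodal, S-type and L-type roots under control. Under salt it had 124, 368 and 229 FPKM in the same order. These levels stood between the percentiles 95.4 and 99.1 of all genes above 0 in their libraries, so that SNAC1 was among the most abundant messengers of each root type. NAC6 (Os01g0884300, chromosome 1, 38398996 to 38401481), also called SNAC2, had 43.8, 301 and 212 FPKM under control and 52.6, 326 and 101.3 under salt. It was second to SNAC1 in every library except control nodal, where bZIP23 came between them at 49.6 FPKM against 43.8.

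bZIP23 (Os02g0766700, chromosome 2, 32276619 to 32281645), a central activator of abscisic acid responses in rice, had 49.6, 92.9 and 85.5 FPKM under control and 38.2, 79.8 and 51.2 under salt. NAC5 (Os11g0184900, chromosome 11, 4299277 to 4301784), a salt and drought responsive factor, had 19.2 to 45.9 FPKM and stood below SNAC1, NAC6 and bZIP23 in every library. TRAB1 (Os08g0472000, chromosome 8, 23234389 to 23240842), which binds the seed regulator VP1 and is phosphorylated when abscisic acid is given, kept to a narrow range of 15.6 to 23.0 FPKM. NAC10 (Os11g0126900, chromosome 11, 1233932 to 1236055), a factor used in root-targeted transgenic rice, spanned the widest range of the 7, from 0.334 FPKM in control nodal to 23.3 in salt S-type roots. bZIP46 (Os06g0211200, chromosome 6, 5677157 to 5682033), a factor held inactive until it is modified, was low throughout, with 1.81 to 7.15 FPKM. Its lowest value was in control nodal and its highest in salt L-type roots. With 1 library a group the order of neighbours such as NAC10 and TRAB1 under salt in S-type roots, at 23.3 and 19.8 FPKM, has no spread to be read against.

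**Figure D1:**
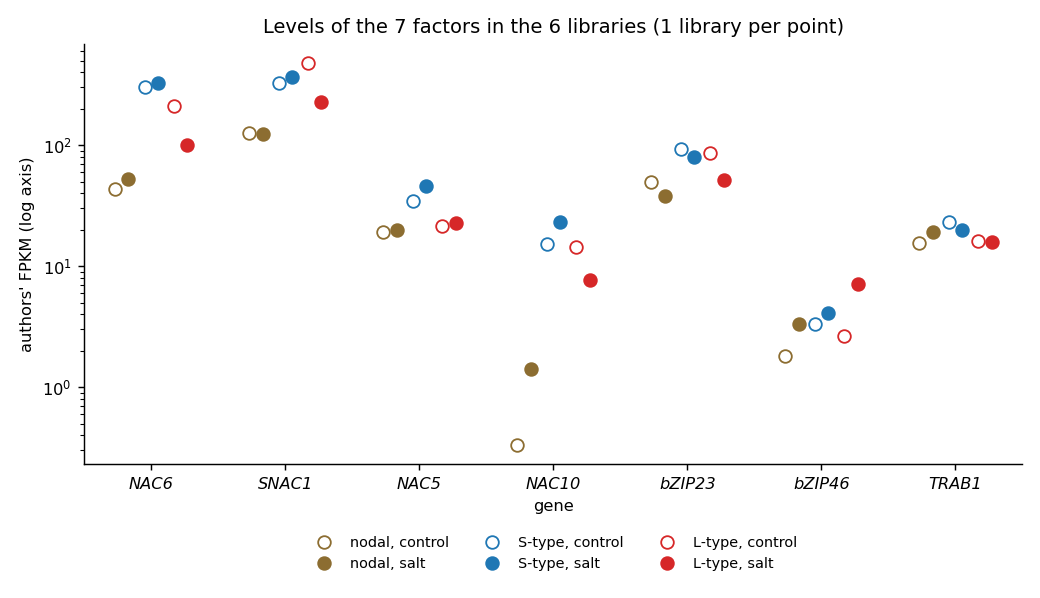
Authors' FPKM (log axis) of the 7 genes in each library, with open circles for control and filled circles for salt, coloured by root type; each point is 1 library and has no error bar. NAC6 and NAC10 separate nodal from lateral roots most widely, and in L-type roots the salt points of NAC6, SNAC1 and NAC10 lie below their control points.

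The first comparison is between root types, over both treatments. The 4 NAC genes and bZIP23 were higher in S-type than in nodal roots, and NAC6, SNAC1 and NAC10 were also higher in L-type than in nodal roots. NAC6 and NAC5 were lower in L-type roots when set against S-type. bZIP46 and TRAB1 passed the threshold in none of the 3 comparisons. These calls come from a limma fit over all 20136 tested genes with root type and treatment as terms, at an adjusted p under 0.05. With 2 residual degrees of freedom a gene's own error is how far its root type differences varied between the treatments. The limma fit drew this error towards that of genes at a like level, with 4.09 prior degrees of freedom. Neither part is a spread between replicates. In whole roots, fewer cells of a type and less RNA per cell cannot be told apart.

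NAC6 had 402, 2770 and 1947 scaled fragments in nodal, S-type and L-type roots under control, and 488, 2999 and 941 under salt. Both S-type libraries were above both L-type libraries, and all 4 lateral libraries were above both nodal ones. The fitted log2 difference was 2.68 for S-type minus nodal (SE 0.32, limma adjusted p = 0.00124), 1.61 for L-type minus nodal (SE 0.32, adjusted p = 0.0352) and -1.08 for L-type minus S-type (SE 0.32, adjusted p = 0.0475). The last of these calls was at the threshold: the edgeR quasi-likelihood test on recovered fragments gave -1.02 with an adjusted p of 0.059, and limma on genes with a mean of at least 50 fragments gave an adjusted p of 0.061, in a range of 0.0105 to 0.061 over all alternatives.

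NAC10 was nearly absent from nodal roots. It had 4 fragments in control nodal and 18 in salt nodal roots, against 130 and 285 in S-type and 128 and 94 in L-type roots under control and salt. The log2 ratio of S-type over nodal was 5.23 under control (counting interval 4.20 to 7.49) and 4.02 under salt (3.42 to 4.88). The fit gave 4.61 for S-type minus nodal (SE 0.60, limma adjusted p = 0.00157) and 3.81 for L-type minus nodal (SE 0.60, adjusted p = 0.0226), values that depend on the pseudocount because of the few nodal fragments. The distance between laterals and nodal roots was the widest of the 7 genes.

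SNAC1 had 975, 2488 and 3643 scaled fragments under control in nodal, S-type and L-type roots and 971, 2807 and 1804 under salt. Both kinds of laterals were thus above nodal roots, but L-type was above S-type under control and below it under salt. Fitted log2 differences were 1.43 for S-type minus nodal (SE 0.29, limma adjusted p = 0.00830) and 1.40 for L-type minus nodal (SE 0.29, adjusted p = 0.0382), while L-type minus S-type was -0.03. The ratio of L-type over S-type was 0.55 under control (0.47 to 0.63) and -0.64 under salt (-0.72 to -0.56), so the value near 0 joins opposite ratios.

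NAC5 had 224, 411 and 248 scaled fragments under control and 231, 525 and 270 under salt in nodal, S-type and L-type roots. It stood out in S-type roots, while nodal and L-type values lay close together. S-type minus nodal was 1.01 (SE 0.14, limma adjusted p = 0.00213) and L-type minus S-type was -0.83 (SE 0.14, adjusted p = 0.00924). L-type minus nodal was 0.19 and did not pass (adjusted p = 0.425).

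Among the bZIP genes only bZIP23 differed between root types by this test. It had 782, 1315 and 1186 scaled fragments under control and 585, 1078 and 744 under salt, and S-type minus nodal was 0.80 (SE 0.15, limma adjusted p = 0.00526). TRAB1 had 142, 207 and 144 under control and 175, 177 and 146 under salt, with S-type highest under control and nodal and S-type nearly equal under salt. Its fitted differences ran from -0.39 to 0.26, and the smallest adjusted p was 0.152. bZIP46 had 18, 22 and 18 fragments under control and 35, 39 and 68 under salt, which leaves wide counting intervals. Its differences ran from 0.26 to 0.79 with a smallest adjusted p of 0.193.

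**Figure D2:**
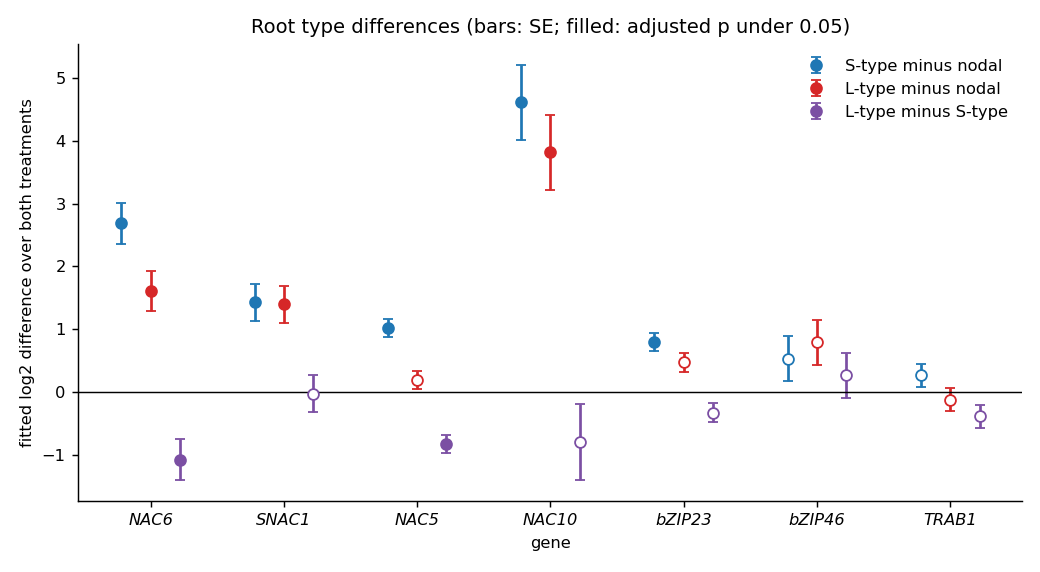
Fitted log2 differences between root types over both treatments for the 7 genes, with SE as bars and filled points where the limma adjusted p was under 0.05. NAC10 has the widest difference from nodal roots, 4.61 for S-type, and all 3 differences of bZIP46 and TRAB1 are unfilled.

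In counts, 5 of the 7 genes were called higher in S-type than in nodal roots and 0 lower. Over all tested genes 55.1% were called in this comparison, 27.1% higher and 28.0% lower. For L-type minus nodal 3 were called higher and 0 lower, beside 11.8% of all genes called, 6.82% higher and 5.02% lower. For L-type minus S-type 0 were called higher and 2 lower, beside 34.0% of all genes, 18.8% higher and 15.2% lower. The median difference of the 7 genes was 1.01, 0.79 and -0.39 in the same order, where the medians over all tested genes were near 0, at -0.00, 0.01 and -0.00. Beside these differences, the tissue markers also moved with root type. The 3 cellulose synthase genes of secondary walls, CESA4, CESA7 and CESA9, which mark lignifying vascular tissue, summed to 6252 and 4613 scaled fragments in nodal, 126 and 131 in S-type and 758 and 1169 in L-type roots under control and salt. All 3 were present in every library, and their part in the differences of the 7 genes was not tested. The root markers moved too: RCc3 was lower in S-type than in nodal roots by a log2 difference of -4.80 (SE 0.22, limma adjusted p = 0.000235) and higher in L-type against S-type by 3.40 (adjusted p = 0.00177). Lsi1 went the other way, with 2.35 for S-type minus nodal (SE 0.23, adjusted p = 0.000718) and -1.12 for L-type minus S-type (adjusted p = 0.0161). L-type minus nodal was -1.40 for RCc3 (adjusted p = 0.0219) and 1.23 for Lsi1 (adjusted p = 0.0314), and the part of these markers was not tested either. In the authors' deposited table of pairwise tests the smallest q of any of the 7 genes was that of NAC6, 0.0902, for salt S-type against control nodal roots.

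The second comparison is between salt and control over the 3 root types. No call was made: 0 of 7 had a limma adjusted p under 0.05, beside 0.119% of all 20136 genes, and edgeR and DESeq2 also called 0. At an unadjusted p under 0.05 limma counted 2 of the 7, bZIP23 and bZIP46, where 10.5% of all genes had such a p. By the same rule edgeR counted 2, beside 10.3% of all genes, and DESeq2 counted 1, beside 5.18%.

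bZIP23 was lower under salt in every root type. Its log2 ratio was -0.42 in nodal (-0.56 to -0.27), -0.29 in S-type (-0.41 to -0.17) and -0.67 in L-type roots (-0.81 to -0.54), and the fitted salt effect was -0.46 (SE 0.12, limma adjusted p = 0.343). bZIP46 had ratios above 0 in every root type, with 0.85 in nodal (0.03 to 1.80), 0.30 in S-type (-0.48 to 1.14) and 1.43 in L-type roots (0.71 to 2.31). Its fitted effect was 0.86 (SE 0.29, adjusted p = 0.430). These 2 bZIP genes therefore had ratios of opposite sign in each root type, and neither passed the threshold. TRAB1 had ratios of 0.29, -0.22 and 0.02, each with an interval that reached 0, and a fitted effect of 0.03 (SE 0.15, adjusted p = 0.963).

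Among the NAC genes, NAC5 had ratios of 0.04 in nodal, 0.35 in S-type (0.15 to 0.55) and 0.12 in L-type roots, with a fitted effect of 0.17 (SE 0.12, limma adjusted p = 0.646). For the other NAC genes the fitted effect joined root types with ratios of opposite sign. It was -0.22 for NAC6 (SE 0.27, adjusted p = 0.784), -0.29 for SNAC1 (SE 0.24, adjusted p = 0.701) and 0.52 for NAC10 (SE 0.49, adjusted p = 0.737). Without the L-type libraries the same fit gave 0.21, 0.10 and 1.24, and none passed.

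The third comparison is the salt ratio within each root type, with 1 library on each side and no test. L-type roots stood apart for NAC6, SNAC1 and NAC10. NAC6 went from 1947 to 941 scaled fragments in L-type roots, a log2 ratio of -1.05 (-1.16 to -0.93), while its ratio was 0.28 in nodal (0.10 to 0.46) and 0.11 in S-type roots (0.04 to 0.19). SNAC1 went from 3643 to 1804 in L-type roots, a ratio of -1.01 (-1.10 to -0.93), with -0.01 in nodal (-0.12 to 0.11) and 0.17 in S-type roots (0.09 to 0.26). NAC10 went from 160 to 86.5, a ratio of -0.88 (-1.29 to -0.50), with 1.83 in nodal (0.50 to 4.13) and 0.62 in S-type roots (0.31 to 0.93). The nodal ratio of NAC10 rests on 4 and 18 fragments.

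**Figure D3:**
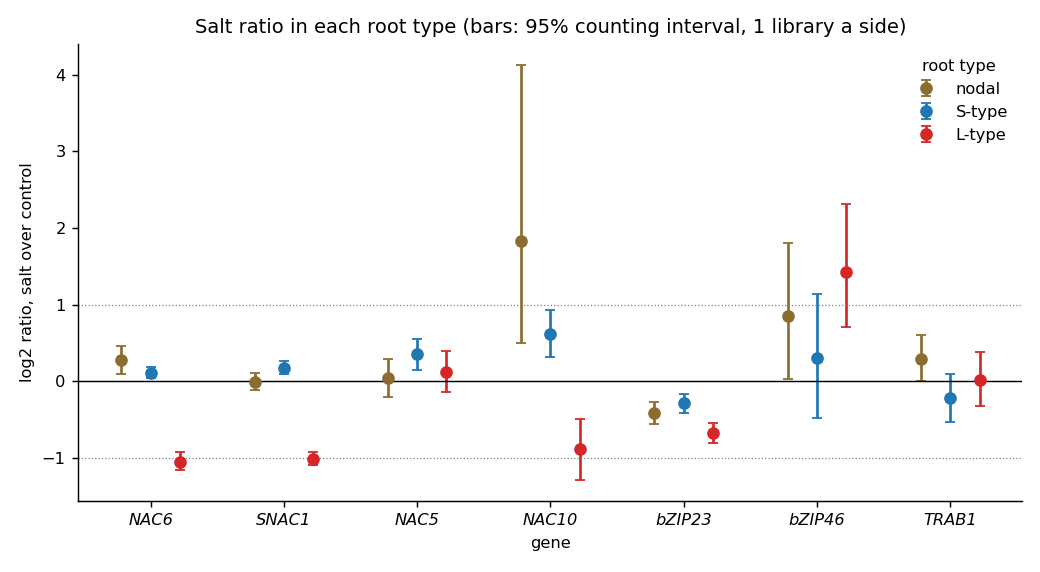
Log2 ratio of salt over control for each of the 7 genes in nodal, S-type and L-type roots, with 95% counting intervals as bars, 1 library on each side, and dotted lines at 2-fold. The L-type points of NAC6 and SNAC1 lie at -1.05 and -1.01 and that of bZIP46 at 1.43, while nodal and S-type points of NAC6 and SNAC1 lie between -0.01 and 0.28.

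At 2-fold and with at least 50 scaled fragments in the higher library, L-type roots held 1 gene of the 7 that was higher under salt, bZIP46, and 2 that were lower, NAC6 and SNAC1. Over all such genes in L-type roots 1.64% were higher and 4.22% lower. bZIP46 reached that minimum only in the library where it was high, salt L-type, with 62.5 scaled fragments against 15.6 to 35.1 in the others, so its count is not read against the share of all genes. Scaled by each library's total of fragments in genes, the ratios of NAC6 and SNAC1 were -0.96 and -0.92, short of 2-fold. In nodal roots 0 of the 5 genes with enough fragments were higher or lower, beside 1.27% and 1.75% of all genes, and in S-type roots 0 of 6, beside 1.63% and 1.8%. The median ratio of the 7 genes in L-type roots was -0.67, where that of all genes was -0.00.

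The salt ratio in L-type roots was lower than that in S-type roots by at least 2-fold for 3 of the 7 genes, and higher for 1. The differences were -1.16 for NAC6, -1.19 for SNAC1, -1.50 for NAC10 and 1.13 for bZIP46. Over all genes 6.22% were lower by that much and 3.35% higher, and bZIP46 again passed the minimum only through salt L-type roots. Against nodal roots the same 3 NAC genes were lower, by -1.33, -1.01 and -2.72, and 0 were higher, beside 4.84% and 3.29% of all genes. NAC10 passed the minimum only through L-type roots, as it had 3.48 and 14.9 scaled fragments in control and salt nodal roots. Its difference from nodal roots is therefore not read against the share of all genes. The value of SNAC1 lay at the limit: scaled by each library's total of fragments in genes it was -0.98, which left 2 genes lower. With 1 library in each group these differences have no test, and both use the same pair of L-type libraries. The secondary wall genes moved in the same libraries: CESA4, CESA7 and CESA9 had salt ratios of 0.55, 0.58 and 0.81 in L-type roots and of -0.35, -0.55 and -0.42 in nodal roots. In S-type roots they had 0.37, -0.17 and -0.15, on 25 to 67 fragments, and each counting interval reached 0. The green tissue marker CAB1R, a light-harvesting protein gene, had -1.80 in L-type, -2.01 in nodal and -1.34 in S-type roots, on 27 to 153 fragments, and CAB2R held 0 to 3 fragments in the lateral libraries and 113 and 21 in nodal roots. Whether such shifts in tissue had a part in the L-type ratios was not tested.

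The L-type values can be placed between the other root types on the log2 scale, with nodal at 0 and S-type at 1. NAC6 stood at 0.83 under control and 0.35 under salt, SNAC1 at 1.43 and 0.57, and NAC10 at 0.99 and 0.61. All 3 had a lower place under salt: NAC6 and NAC10 stood farther below the S-type level, and SNAC1 went from above the S-type level to below it. Across the 4245 genes with S-type and nodal at least 2-fold apart in the same direction under both treatments, the median place was 0.44 under control and 0.32 under salt, and 66.2% had a lower place under salt. Among the 2167 of them that were higher in S-type roots, as the NAC genes are, the medians were 0.54 and 0.36 and the share was 73.2%. The direction of the 3 NAC genes was therefore that of most genes of this kind.

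**Figure D4:**
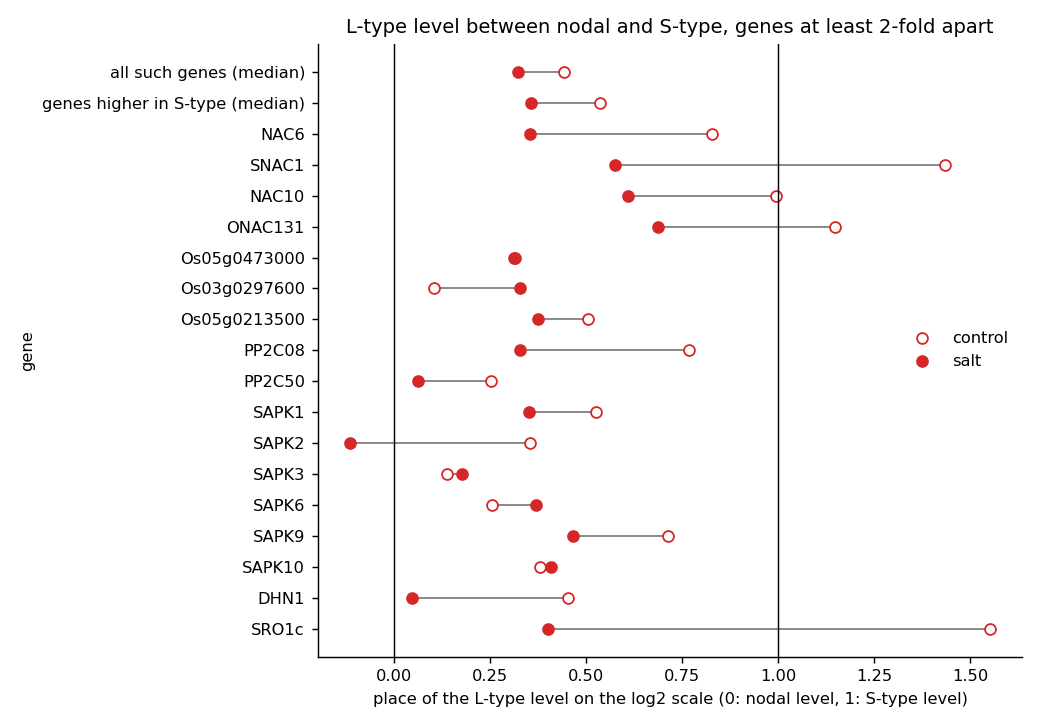
Place of the L-type level between the nodal level (0) and the S-type level (1) on the log2 scale, for genes with S-type and nodal at least 2-fold apart under both treatments, with open points for control and filled for salt; the top rows are medians over 4245 and 2167 genes. SNAC1 moves from 1.43 to 0.57 and NAC6 from 0.83 to 0.35, in the direction of the medians.

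Other stress NAC genes were listed for comparison, 8 of them found in the files and 6 tested. For salt 0 of 6 passed, with a median effect of 0.22. NAC4, a factor of plant immunity in rice, had the most uneven ratios, with 14.1 and 75.6 scaled fragments in S-type roots under control and salt and 92.7 and 16.5 in L-type roots. Its log2 ratio was 2.34 in S-type (1.51 to 3.47), -2.42 in L-type (-3.32 to -1.73) and 0.86 in nodal roots (0.06 to 1.77). ONAC131, a factor of blast resistance on the duplicated end of chromosome 12, had 3, 118 and 207 fragments under control and 11, 233 and 88 under salt in nodal, S-type and L-type roots. NAC10 lies on the matching end of chromosome 11, and how the authors' counting split reads between similar copies was not analysed here. ONAC131 had a salt ratio of -1.67 in L-type (-2.06 to -1.31) and 0.46 in S-type roots (0.14 to 0.80). NAC3 had 0.54, 0.80 and -0.50 in nodal, S-type and L-type roots, NAC14 had 0.36, 0.82 and -0.32 beside an overlapping model with 579 to 716 fragments, and ONAC022 had 0.42, 0.48 and -0.31. In all, the 6 genes with enough fragments had L-type ratios below 0, with a median of -0.45, and 2 of them were at least 2-fold lower. In S-type roots 1, NAC4, was at least 2-fold higher and the median was 0.64. The medians of all genes with enough fragments were -0.003 in L-type and -0.022 in S-type roots, and the share of them below 0 was not computed. Over all such genes 4.22% were lower in L-type and 1.63% higher in S-type roots. NAC4 is in both counts and reached the minimum only in the library of each pair where it was high. These counts are therefore not read against the shares of all genes. By root type, 3 of 6 were called higher in S-type than in nodal roots, and 1, ONAC131, in L-type than in nodal roots. Over all tested genes 27.1% and 6.82% were called higher in these comparisons.

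The other bZIP factors of the abscisic acid response gave no call in the limma fit. bZIP72 had 69.5, 129 and 62.6 scaled fragments under control and 71.3, 102 and 95.7 under salt, and a fitted salt effect of 0.10 (SE 0.21, limma adjusted p = 0.894). That effect joined ratios of 0.04 in nodal, -0.33 in S-type (-0.74 to 0.07) and 0.60 in L-type roots (0.11 to 1.13). OREB1 held 0 to 17 fragments and was not tested.

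Upstream of the bZIP factors, the SnRK2 kinases held the gene with the highest fitted salt effect of the listed pathway. SAPK9, a kinase activated by abscisic acid, had 113, 1241 and 611 scaled fragments under control and 1348, 4605 and 2411 under salt in nodal, S-type and L-type roots. Every salt library was above the control library of its root type, with log2 ratios of 3.57 in nodal (3.32 to 3.85), 1.89 in S-type (1.79 to 1.99) and 1.98 in L-type roots (1.84 to 2.12). The fitted effect was 2.47 (SE 0.33) and did not pass over all genes, with a limma adjusted p of 0.121 and an edgeR adjusted p of 0.124. It passed in DESeq2, with an adjusted p of 2.694e-12, and in limma without the L-type libraries, with 0.0387. Under the other alternatives the adjusted p was 0.0699 to 0.209, and 1.0 without the root type term. The model of Os12g0586000 overlaps that of SAPK9 and held 427 to 752 fragments in the libraries, with no rise of that size.

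Of the 10 tested SnRK2 genes 0 passed for salt. SAPK1 had ratios of 0.83, 0.67 and 0.57 and a fitted effect of 0.68 (SE 0.14, limma adjusted p = 0.248), and SAPK4 had 0.44 (adjusted p = 0.399), with 259 to 721 fragments in an overlapping model. SAPK2, which phosphorylates bZIP23 in rice, had 889, 3362 and 1399 scaled fragments under control and 796, 3153 and 692 under salt. Its L-type ratio was -1.02 (-1.15 to -0.88), beside -0.16 in nodal and -0.09 in S-type roots, much as for NAC6 and SNAC1. By root type, 8 of the 10 kinase genes were called higher and 1 lower in S-type than in nodal roots. Over all tested genes these shares were 27.1% and 28.0%. In L-type roots against S-type 5 were called lower, beside 15.2% of all genes. They were led by SAPK2 with -1.71 (SE 0.25, limma adjusted p = 0.00545), SAPK10 with -1.54 and SAPK3 with -1.13.

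Of the 9 abscisic acid receptor genes 6 were tested, and 0 passed for salt. The receptor genes Os05g0473000 and Os10g0573400 had fitted effects of -0.63 (SE 0.15, limma adjusted p = 0.328) and -0.57 (SE 0.13, adjusted p = 0.309), with ratios below 0 in each root type. Os06g0562200 had 0.63, on 3 to 14 fragments. By root type 3 were called higher and 1 lower in S-type than in nodal roots, beside 27.1% and 28.0% of all tested genes. The 3 higher were Os03g0297600 with 1.74 (limma adjusted p = 0.000661), Os05g0473000 with 1.94 and Os05g0213500 with 1.49. The same 3 were called lower in L-type roots against S-type, with -1.38, -1.33 and -0.82, beside 15.2% of all genes.

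Of the 9 clade A PP2C genes, whose products hold the SnRK2 kinases inactive, 8 were tested and 0 passed for salt. PP2C49 had 73.0, 7.71 and 63.9 scaled fragments under control and 42.3, 19.8 and 17.5 under salt. Its ratio was -0.77 in nodal (-1.32 to -0.27), 1.26 in S-type (0.01 to 2.95) and -1.81 in L-type roots (-2.71 to -1.09), the S-type value resting on 6 and 22 fragments. PP2C68 had a fitted effect of -0.34 and PP2C50 of 0.10. By root type 2 were called higher and 3 lower in S-type than in nodal roots, beside 27.1% and 28.0% of all tested genes. In L-type roots against S-type 2 were higher and 2 lower, beside 18.8% and 15.2%, with PP2C30 at 1.23 and PP2C50 at -0.99.

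Downstream, 8 abscisic acid and dehydration response genes were found and 4 tested, and 0 passed for salt. The dehydrin genes RAB16A, RAB16B, RAB16C and RAB16D, which rice transcribes strongly when abscisic acid or salt is applied, held 0 to 3 fragments in every library, salt libraries included. LEA3-1, of the late embryogenesis abundant proteins, held 9 to 20 fragments and had no ratio above 0. DHN1, another dehydrin, was abundant instead, with 1672, 5353 and 2781 scaled fragments under control and 1660, 7336 and 1809 under salt. Its ratios were -0.01 in nodal (-0.10 to 0.08), 0.45 in S-type (0.40 to 0.51) and -0.62 in L-type roots (-0.71 to -0.53), and L-type minus S-type was -1.47 (SE 0.26, limma adjusted p = 0.00971). SRO1c, a gene that SNAC1 activates in rice guard cells, had 0.13, 0.88 (0.47 to 1.32) and -0.94 (-1.39 to -0.50), and ERD1 had 0.19, 0.42 and -1.23 (-1.47 to -0.99) in nodal, S-type and L-type roots. The 3 target genes with enough fragments in both kinds of lateral root thus had S-type ratios above 0 and L-type ratios below 0. NAC6, SNAC1 and NAC10 had the same signs. The share of all genes with this pair of signs was not computed, so the likeness is not read as a link between them.

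**Figure D5:**
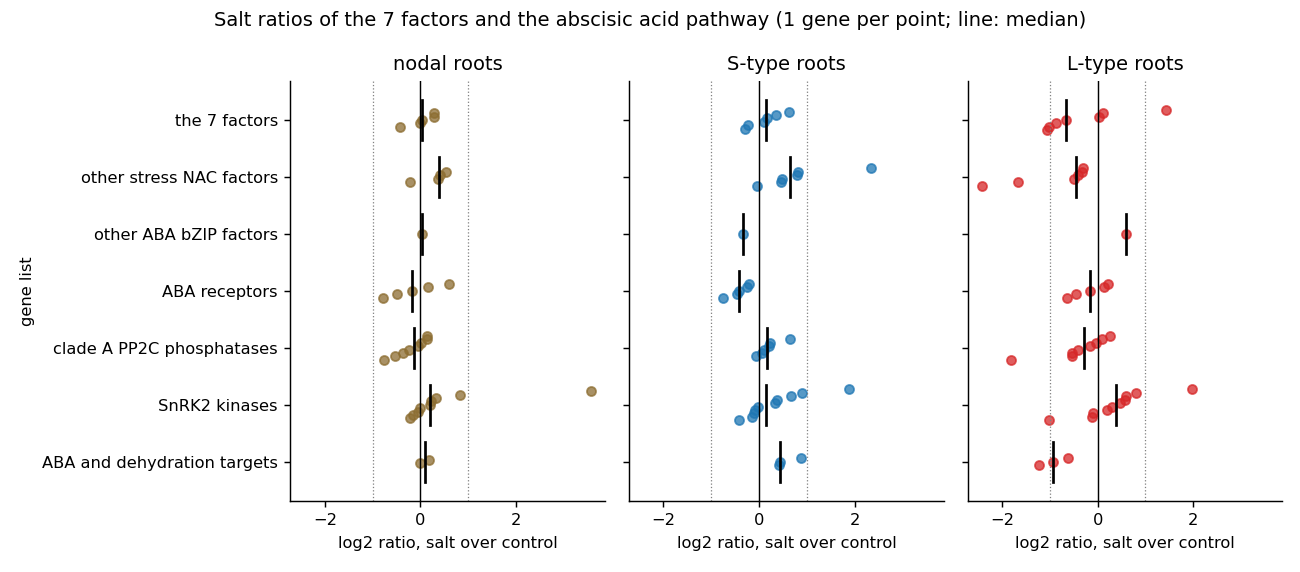
Log2 ratio of salt over control in nodal, S-type and L-type roots for the 7 genes and for the listed genes of the pathway with at least 50 scaled fragments in the higher library; each point is 1 gene, vertical lines are list medians and dotted lines mark 2-fold. In L-type roots the medians of the 7 genes, of the other NAC genes and of the target genes lie below 0, while that of the SnRK2 kinases lies at 0.38.

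Over the 46 genes of these pathway lists found in the files, 35 were tested. For salt 0 were called higher or lower, with a median effect of 0.05, beside 0.119% of all genes called, and 6 had an unadjusted limma p under 0.05, as had 10.5% of all genes. edgeR called 0 and DESeq2 called 1, SAPK9. For S-type minus nodal 18 were called higher and 5 lower, beside 27.1% and 28.0% of all genes. For L-type minus nodal 3 were higher and 0 lower, beside 6.82% and 5.02%, and for L-type minus S-type 2 were higher and 11 lower, beside 18.8% and 15.2%. The medians of these differences were 0.68, 0.23 and -0.25.

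Likeness over the 6 libraries was measured as the root mean square difference of centred log2 values among 14942 tested genes with a mean of at least 50 scaled fragments. The libraries share their scaling, and 6 points describe a pattern without a test. Nearest to NAC6 were Os05g0486100 at 0.08 and Os02g0777800 at 0.08, the first with 990, 6772 and 4957 scaled fragments under control and 1090, 7225 and 2521 under salt. Nearest to SNAC1 were Os03g0181100 at 0.07 and Os10g0535600 at 0.08, and nearest to NAC5 were Os01g0869600 at 0.04 and Os12g0576900 at 0.07. For NAC10 the nearest of all was ONAC131, at 0.41, followed by Os02g0227100 at 0.45, over a range of 5.84 for NAC10 itself. In control nodal roots NAC10 and ONAC131 rest on 4 and 3 fragments. They lie on matching chromosome ends, and how reads were split between similar copies was not analysed. Nearest to bZIP23 were Os10g0519300 at 0.08 and Os02g0322400 at 0.09, to bZIP46 Os02g0698800 at 0.15 and Os04g0438600 at 0.16, and to TRAB1 Os05g0397700 and Os01g0813500, both at 0.06. Among the 7 genes themselves, the closest pair by this measure was NAC5 and TRAB1 at 0.36, while NAC6 and SNAC1 were 0.56 apart. The measure is small for genes that vary little: TRAB1 ranged over 0.52 and NAC5 over 1.22, against 2.89 for NAC6. By correlation the order was reversed, with 0.65 for NAC5 and TRAB1, 0.92 for NAC6 and SNAC1 and 0.94 for NAC6 and NAC10.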

How the data were processed

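Per the submitters' processing notes, the build was IRGSP-1.0, and the tools named, with no order, are Cuffdiff 2.2.1 and Cufflinks 2.2.1, TopHat2 2.0.11 with Bowtie, and Trimmomatic 0.32; settings, and whether strand was used in counting, are not given in the sources used here. Libraries kept strand, per the labels, and RNA was extracted with a column kit. The values of the deposited table of gene counts are a scaled signal: in each library all counts were multiplied by the same factor. From 99.987% to 100.0% of values under 1000 fragments were whole multiples of the library's step within 0.02 fragments, so whole fragments were recovered; 1 fragment was worth 0.829 to 1.29. The authors also deposited FPKM, p-values and q-values for 15 pairs of libraries.

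The main test was limma-trend (limma 3.58.1) applied to log2(TMM-scaled value + 1), with root type and treatment as terms, after filterByExpr by treatment (20136 genes), with Benjamini-Hochberg adjusted p under 0.05; edgeR 4.0.16 and DESeq2 1.42.0 on recovered fragments were alternatives. Fold changes are on the log2(value + 1) scale. Ratios of 2 libraries used deposited values plus 1 with exact conditional binomial 95% intervals. The fit was checked on simulated data in which the salt effect did not vary between root types. That check does not cover genes whose salt ratios differed between root types.

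The 7 genes and the gene lists were chosen with earlier results of these data known. The text names the 7 genes, from each list the tested genes with the most salt or L-type minus S-type change, and for each of the 7 the nearest genes in pattern; the RAB16 genes and OREB1, outside that rule, were named after their values were seen, and no protein comparison was made. The files pair no identifier with a name: 4 of the 7 symbols, and 37 of 61 listed, matched the RefSeq gene table of another rice assembly on the same chromosome, and the others are as commonly used. ABF1 was not matched. Each root type was left out in turn, scalings, pseudocounts and filters were varied, and the closing section gives the effect.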

Additional observations from a re-analysis of the deposited data

Results flagged for a closer look

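The salt ratios of 3 NAC genes had opposite signs in different root types, with counting intervals on opposite sides of 0. Those intervals hold no variation between libraries, and in S-type roots the ratios of NAC6 and SNAC1 were only 0.11 and 0.17. For NAC6 the ratio in L-type roots was lower than in S-type roots by a log2 difference of -1.16 and lower than in nodal roots by -1.33. For SNAC1 the difference between L-type and S-type roots was -1.19. For NAC10 it was -1.50 between L-type and S-type and -2.72 between L-type and nodal roots, the last with 4 fragments in control nodal roots. Each group held 1 library, so the differences were not tested.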

How the results depend on the processing

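The count of the 7 genes called for salt was 0 in limma, edgeR and DESeq2 and under every alternative run, and the counts for S-type minus nodal (5) and L-type minus nodal (3) held under each alternative run for them. For L-type minus S-type 2 were called, and 1 with edgeR or a mean of at least 50 fragments, where NAC6 was lost. Over all genes the salt count was 24, and 28 with edgeR, 170 with DESeq2, 2 when genes under a mean of 50 fragments were dropped, 0 without the root type term (199 at an unadjusted p under 0.05), and 1 to 44 with a root type left out (3 without nodal, 1 without S-type, 44 without L-type). Pathway genes called for salt were 0, and 1 with DESeq2, and 0 to 1 with a root type left out, the 1 without L-type being SAPK9. Pathway genes called for L-type minus nodal were 3, and 6 with DESeq2. The ratio of bZIP23 in L-type over S-type roots under control turned from -0.15 to 0.037 when scaled by each library's total of fragments in genes. That scaling moved the median of all genes by 0.19 and 0.24 for L-type over S-type and by -0.22 and -0.26 for S-type over nodal, under control and salt. It took the higher share of 2-fold calls from 52.7% to 66.2% and 50.0% to 66.8% in the former and from 51.0% to 40.7% and 51.9% to 38.2% in the latter. The cause was not tested. No paired analysis was possible by replicate number because each group held 1 library; the root type term pairs salt with control. Few fragments leave wide counting error for bZIP46, NAC10 in nodal roots and LEA3-1. The differences of salt ratios were also computed under alternatives chosen after seeing the data: 3 of the 7 genes were lower for L-type minus nodal, and 2 when scaled by total fragments. With authors' FPKM, bZIP23 moved from 0.75 to 0.91 for S-type over nodal under control.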
